A study of Homo sapiens with 2 samples.

Results

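The snoRNA host genes are a group of transcription units whose introns carry small nucleolar RNAs. They were taken by symbol from GENCODE v29: every gene named SNHG followed by a number, plus GAS5, ZFAS1, EPB41L4A-AS1, LRRC75A-AS1, C6orf48, DANCR, TAF1D, CHD8, RACK1, EIF4A2 and NCL. This gave 36 gene entries of the 57894 genes in the deposited tables, because SNHG28 has 2 entries. Of the 36, 29 are annotated as non-coding and 7 as protein-coding. Total RNA was sequenced in LARP7 knockout HEK293 cells (clone 1-11) and in the parental HEK293 cells, with 2 libraries per group. HEK293 is a line of human embryonic kidney origin, both groups were grown in the same medium without any treatment, and LARP7 is a La-related protein that binds 7SK RNA. The series was made to measure how loss of LARP7 acts on transcript levels and splicing. All knockout libraries come from 1 clone, so other differences between that clone and the parental cells cannot be told apart from the knockout. The source field of the knockout sample reads wildtype, against its title and genotype field, and the genotype field was followed. The labels do not say if the 2 libraries of each group are separate cultures, and the p-values below therefore reflect library-to-library spread that may be technical only.

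Small nucleolar RNAs (snoRNAs) guide chemical modification of other RNAs: box C/D snoRNAs guide 2′-O-methylation, box H/ACA snoRNAs guide pseudouridylation, and the related small Cajal body RNAs (scaRNAs) do so for spliceosomal snRNAs. In human cells most of them are cut from the debranched introns of a host gene. Many non-coding hosts are spliced, exported and then removed by nonsense-mediated decay, and a number of hosts start with a pyrimidine tract at the first base of the RNA (a 5′ terminal oligopyrimidine tract). LARP7 has also been described as a partner of box C/D snoRNAs in the 2′-O-methylation of U6 snRNA.

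Genes of type snoRNA or scaRNA that lie wholly inside a host gene on its strand are called embedded below. There were 162 of them in 34 of the 36 host entries, and the rule found none inside GAS5 or SNHG27. The count rests on the genes annotated in GENCODE v29 and does not show that GAS5 or SNHG27 carries no snoRNA. The small Cajal body RNA in an intron of SNHG10 is shown first because its counts differed in the opposite direction to most embedded genes. Capitals mark its last ACA, which ends 3 bases before the 3′ end, and the sequence is that of chr14:95533355-95533629, minus strand, GRCh38.
SCARNA13: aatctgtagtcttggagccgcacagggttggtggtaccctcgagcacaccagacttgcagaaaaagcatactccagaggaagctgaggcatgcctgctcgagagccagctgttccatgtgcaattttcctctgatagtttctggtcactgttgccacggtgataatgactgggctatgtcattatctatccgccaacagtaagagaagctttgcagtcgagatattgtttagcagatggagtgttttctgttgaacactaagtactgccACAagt

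SNHG17 carries related H/ACA RNAs in its introns on chromosome 20 (minus strand, GRCh38), shown because SNORA71A had one of the lowest unadjusted p-values among the embedded genes and its relatives can share reads with it. They lie at chr20:38427309-38427442 (SNORA71A), chr20:38425198-38425331 (SNORA71B, transcript SNORA71B-201) and chr20:38433865-38433998 (SNORA71D). Compared position by position over 134 bases, SNORA71B was 70.9% identical to SNORA71A and SNORA71D 71.6%. Capitals mark the 39 and 38 positions at which they differ from SNORA71A. No gaps were allowed, and some capitals fall in a shared stretch that lies out of register with SNORA71A. The percentages therefore understate how alike these RNAs are.
SNORA71A: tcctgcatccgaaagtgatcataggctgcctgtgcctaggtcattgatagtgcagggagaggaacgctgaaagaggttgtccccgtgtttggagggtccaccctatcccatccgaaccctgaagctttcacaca
SNORA71B: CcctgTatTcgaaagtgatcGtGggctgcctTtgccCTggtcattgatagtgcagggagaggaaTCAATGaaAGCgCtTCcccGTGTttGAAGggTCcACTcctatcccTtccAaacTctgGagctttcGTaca
SNORA71D: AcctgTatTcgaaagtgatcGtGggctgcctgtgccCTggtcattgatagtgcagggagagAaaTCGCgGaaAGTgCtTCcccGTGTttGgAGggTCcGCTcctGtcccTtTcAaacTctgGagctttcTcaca

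ZFAS1 carries box C/D RNAs on chromosome 20 (plus strand, GRCh38), shown because they are, with SNORD22 of SNHG1, the embedded C/D genes that had enough reads to be tested. Capitals mark TGATGA, the letters of box C, and the last CTGA, those of box D. The letters TGATGA followed by CTGA on the RNA's own strand occurred in 220 of 288 SNORD transcripts of GENCODE v29 (76.4%) and in 1 of 149 SNORA transcripts (0.671%). SNORD12 lies at chr20:49280683-49280772, SNORD12B at chr20:49280319-49280409 and SNORD12C at chr20:49278940-49279028.
SNORD12: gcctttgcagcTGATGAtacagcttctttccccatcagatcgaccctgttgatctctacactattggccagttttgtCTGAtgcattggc
SNORD12B: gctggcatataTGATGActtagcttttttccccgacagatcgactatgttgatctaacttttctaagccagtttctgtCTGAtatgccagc
SNORD12C: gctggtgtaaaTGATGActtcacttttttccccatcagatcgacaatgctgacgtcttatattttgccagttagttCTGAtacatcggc

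The host genes themselves were compared at their first bases, because the terminal pyrimidine tract is what groups them with many genes of the translation machinery. RefSeq (GRCh38.p14) start sites were found for 29 hosts. The first base was a C followed by 4 pyrimidines in 9 of them (31%), against 1104 of 27305 genes with a start site in the same table (4.04%). The windows below hold 10 bases before the start and 20 bases from it, and capitals mark the run of C and T from the first base of the RNA. They lie at chr5:139274091-139274120 (SNHG4, plus strand), chr1:28581854-28581883 (SNHG12, minus), chr16:2155339-2155368 (SNHG19, minus), chr20:49278632-49278661 (ZFAS1, plus) and chr9:136728165-136728194 (SNHG7, minus). SNHG7 is shown as one in which the run stops after 4 bases.
SNHG4: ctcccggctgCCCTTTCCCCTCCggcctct
SNHG12: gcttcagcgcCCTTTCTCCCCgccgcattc
SNHG19: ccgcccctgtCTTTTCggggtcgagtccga
ZFAS1: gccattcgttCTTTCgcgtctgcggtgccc
SNHG7: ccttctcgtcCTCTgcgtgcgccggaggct

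The libraries held 16838501 and 16218587 estimated reads in knockout cells and 18483220 and 12851942 in parental cells. Parental replicate 2 stood apart: by effective length, fragments averaged 232.9 and 225.8 bases in the knockout libraries and 217 and 206.7 bases in the parental ones. Small RNA genes, 7SK included, took 1.1 and 1.31% of the reads in knockout cells and 1.81 and 3.19% in parental cells, while snoRNA and scaRNA genes took 0.204 and 0.264%, against 0.225 and 0.332%. Because TPM is scaled per length to a fixed total, small RNA genes held 31.9 and 36.2% of it in knockout cells and 37 and 52.6% in parental cells. TPM was therefore used for levels between genes and for the share of a transcript in its gene or of a transcript class in the hosts, and differences in a gene's level between groups are given in CPM, reads scaled to a common library size with TMM factors. LARP7 had 36.1 and 31.9 CPM in knockout cells and 59.8 and 46.5 CPM in parental cells (log2 fold change -0.65, edgeR adjusted p = 0.135), and 7SK had 169 and 205 CPM, against 5572 and 5481 (log2 fold change -4.89, edgeR adjusted p = 1.13e-06). The HEK293 markers summed to 360 and 347 TPM in knockout and 272 and 200 TPM in parental libraries, most of it VIM, with none of 9 under 0.5 TPM throughout, whereas 8 of 10 markers of other cell types stayed under 0.5 TPM. One of the 9, the neurofilament gene NEFM, was lower in knockout cells (7.76 and 8.58 CPM, against 49.4 and 73.6 CPM in parental cells, log2 fold change -2.91, edgeR adjusted p = 0.00164).

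The host genes took 0.626 and 0.643% of all reads in knockout cells and 0.618 and 0.605% in parental cells. The protein-coding hosts RACK1 and NCL and a few non-coding ones held most of this: the 10 highest hosts carried 81.4% of host TPM, and the protein-coding hosts 52.3%. No host gene changed at an adjusted p under 0.05 in edgeR's quasi-likelihood test, where 0.833% of the 18484 genes tested were called (0.33% higher and 0.503% lower in knockout cells). Of the 32 host genes tested, 25 had a negative and 7 a positive log2 fold change. Their range was -1.14 to 0.46 and their median -0.16, against 0.002 for all genes tested. The 7 host genes at an unadjusted p under 0.05 were SNHG9, SNHG7, SNHG4, SNHG3, SNHG6, SNHG12 and SNHG21, all with lower levels in knockout cells, while 14.3% of all genes tested reached that p. DESeq2 called 1.31% of the 31419 genes it read, a larger set than that of edgeR, and limma voom called 0.812% of the 18484. Both called 0 host genes. Leaving out a parental library leaves 1 sample in that group, which is then assumed to vary like the knockout pair. In those fits 11.4% (without replicate 1) and 9.27% (without replicate 2) of all genes were called, and calls of hosts or embedded genes there are to be read against those shares.

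In 17 of the 32 tested hosts both knockout libraries lay below both parental libraries, and in 6 both lay above, where 22.7 and 23.6% of all genes tested did so. The lower group was made up of non-coding hosts alone: 17 of the 26 tested, with a median log2 fold change of -0.21 over the 26. The 6 protein-coding hosts tested had a median of 0.034, with 2 above and none below, and the difference between the classes was not tested. In bulk RNA of this kind, fewer expressing cells and less RNA per cell cannot be told apart.

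**Figure D1:**
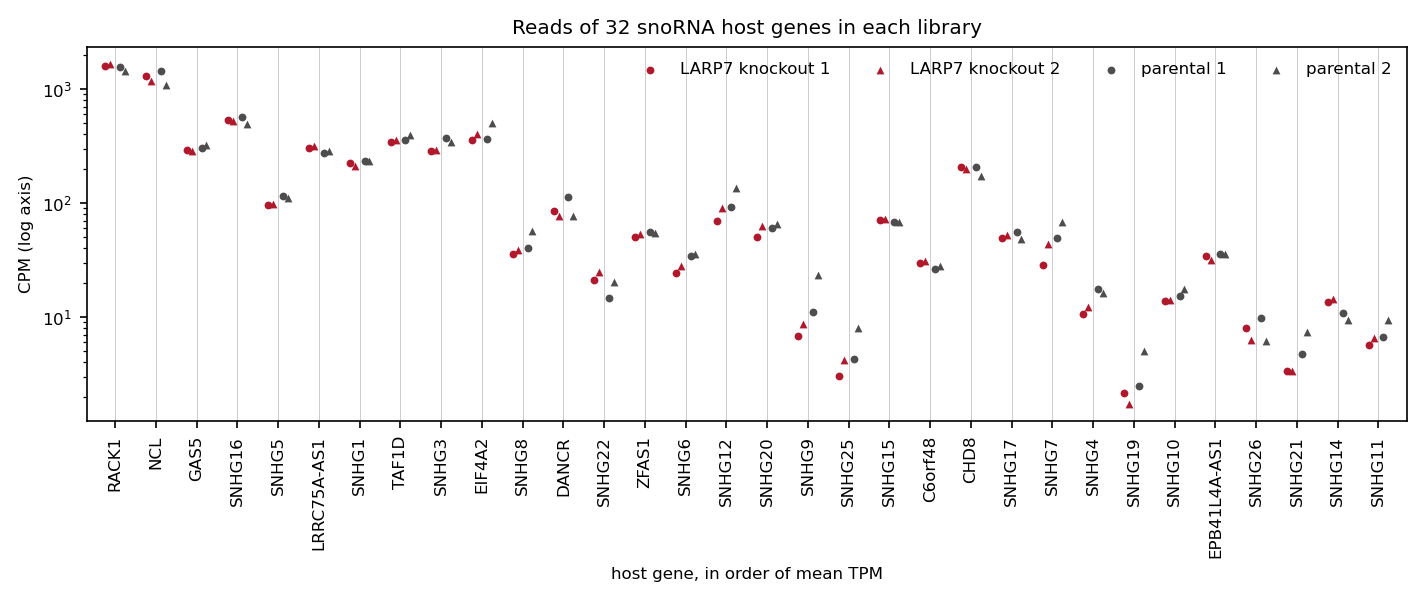
CPM (log axis) of the 32 tested host genes in each library, with genes in order of mean TPM, LARP7 knockout in red and parental in grey, circles for replicate 1 and triangles for replicate 2. RACK1 and NCL lie above 1000 CPM in all libraries, and in 17 genes both red points lie below both grey points.

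Among the protein-coding hosts, RACK1 (chr5:181236909-181248096, minus strand), a scaffold protein of the small ribosomal subunit, was the most abundant member. It had 1646 and 1637 TPM in knockout cells and 1300 and 983 TPM in parental cells. NCL followed at 832 and 723 TPM in knockout cells and 756 and 434 TPM in parental cells, and GAS5, SNHG16, SNHG5 and LRRC75A-AS1 came next, with ranges between 177 and 357 TPM that overlapped each other. The lowest tested host, SNHG11, stood at 2.56 to 4.15 TPM. In CPM, RACK1 had 1594 and 1651 in knockout cells and 1545 and 1439 in parental cells, and the groups did not overlap. The log2 fold change was 0.12 with a 95% interval of -0.06 to 0.31 (edgeR adjusted p = 0.615). NCL (chr2:231453531-231483641, minus), which encodes the nucleolar protein nucleolin, had 1296 and 1162 CPM in knockout cells and 1422 and 1090 CPM in parental cells. The groups overlapped, and the interval of the log2 fold change ran from -0.30 to 0.24. Annotated processed copies of NCL and EIF4A2 had at most 113 and 30 reads in a library, and 0.469 and 0.346% of their parent gene's reads.

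TAF1D (chr11:93729948-93784391, minus), a TATA-box binding protein associated factor of RNA polymerase I, had 340 and 359 CPM in knockout cells and 357 and 395 CPM in parental cells. EIF4A2 (chr3:186783205-186789900, plus), an RNA helicase of translation initiation, had 357 and 405 CPM in knockout cells and 365 and 500 CPM in parental cells. CHD8 (chr14:21385194-21456126, minus), a chromatin remodeller, had 207 and 198 CPM in knockout cells and 206 and 172 CPM in parental cells. Values of the 3 genes overlapped between the groups, and their log2 fold changes were -0.10, -0.18 and 0.10 with standard errors of 0.11, 0.16 and 0.13. C6orf48 (chr6:31834608-31839766, plus) had 29.6 and 31.2 CPM in knockout cells and 26.2 and 28 CPM in parental cells (log2 fold change 0.17 ± 0.15 SE, edgeR adjusted p = 0.673). Exons of TAF1D, EIF4A2, CHD8 and RACK1 lie over those of genes on the opposite strand, and no source used here gives the strand setting.

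The abundant non-coding hosts were close to their parental levels. GAS5 (chr1:173863900-173868882, minus), whose RNA accumulates when growth arrests, had 290 and 283 CPM in knockout cells and 306 and 322 CPM in parental cells, without overlap. Its log2 fold change was -0.14, with an interval of -0.35 to 0.08. SNHG16 (chr17:76557766-76565348, plus) had 538 and 519 CPM in knockout cells and 564 and 495 CPM in parental cells, with the groups interleaved and an interval of -0.23 to 0.22. SNHG1 (chr11:62851988-62855914, minus), which has 7 embedded genes, had 225 and 210 CPM in knockout cells and 235 and 232 CPM in parental cells. SNHG5 (chr6:85660950-85678748, minus) had 96.4 and 97.7 CPM in knockout cells and 114 and 110 CPM in parental cells, an average of 97 ± 0.895 against 112 ± 2.55 (SD, n = 2 each). Both genes were lower in knockout cells without overlap, by log2 fold changes of -0.10 ± 0.11 and -0.21 ± 0.12 (SE).

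LRRC75A-AS1 (chr17:16438822-16478678, plus) went the other way among the abundant non-coding hosts. It had 302 and 315 CPM in knockout cells and 276 and 283 CPM in parental cells (log2 fold change 0.14 ± 0.11 SE, edgeR adjusted p = 0.617). Its exons overlap those of LRRC75A on the opposite strand. SNHG3 (chr1:28505980-28510892, plus), the host of SNORA73A and SNORA73B, had 287 and 290 CPM in knockout cells and 371 and 342 CPM in parental cells. The replicates of each group were close and the groups did not overlap, with a log2 fold change of -0.30 and an interval of -0.52 to -0.08 (edgeR adjusted p = 0.275). SNHG3 shares exon positions with RCC1 on the same strand, so the assignment of its reads is uncertain.

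The lowest fold changes belonged to non-coding hosts of moderate or low level. SNHG9 (chr16:1964959-1965509, plus), a short host of SNORA78, had 6.86 and 8.71 CPM in knockout cells and 11.1 and 23.5 CPM in parental cells. Its log2 fold change was -1.14 ± 0.34 (SE; edgeR adjusted p = 0.185), and -0.52 without parental replicate 2, which alone held the highest value. SNHG7 (chr9:136721366-136728184, minus) had 28.6 and 43.6 CPM in knockout cells and 48.9 and 68 CPM in parental cells. Its log2 fold change was -0.69 ± 0.23 (SE; edgeR adjusted p = 0.224), -0.44 when parental replicate 2 was left out, -0.42 when knockout replicate 1 was and -1.02 when knockout replicate 2 was. The groups did not overlap in either gene, but the parental libraries differed from each other by more than the closest values of the groups did.

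SNHG4 (chr5:139274102-139284899, plus), the host of SNORA74A, had 10.7 and 12.3 CPM in knockout cells and 17.7 and 16.3 CPM in parental cells. The spread within groups was smaller than the gap between them (11.5 ± 1.12 against 17 ± 0.999 CPM, SD, n = 2 each), and the log2 fold change was -0.57 ± 0.20 (SE; edgeR adjusted p = 0.25). SNHG12 (chr1:28578538-28583132, minus) had 69 and 89.8 CPM in knockout cells and 92.7 and 136 CPM in parental cells. Its log2 fold change of -0.52 ± 0.20 (SE; edgeR adjusted p = 0.293) became -0.23 without parental replicate 2, -0.34 without knockout replicate 1 and -0.78 without parental replicate 1. SNHG6 (chromosome 8, positions 66921684 to 66926398, minus) had 24.5 and 28.2 CPM in knockout cells and 34 and 35.8 CPM in parental cells, with a log2 fold change of -0.40 ± 0.16 (SE; edgeR adjusted p = 0.293). SNHG4 has exons over MATR3 on the same strand, and SNHG4, SNHG7, SNHG12 and SNHG6 have exons over genes of the opposite strand.

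A pair of non-coding hosts had positive log2 fold changes above 0.3. SNHG14 (chr15:24978583-25419462, plus) is the long imprinted transcript unit of the Prader-Willi and Angelman region, which carries 84 embedded genes. It had 13.6 and 14.4 CPM in knockout cells and 10.8 and 9.45 CPM in parental cells, with a log2 fold change of 0.46 and an interval of 0.06 to 0.87 (edgeR adjusted p = 0.361). SNHG22 (chr18:49814023-49851059, plus) had 21.2 and 24.9 CPM in knockout cells and 14.8 and 20.3 CPM in parental cells (log2 fold change 0.40 ± 0.21 SE, edgeR adjusted p = 0.437), and the fold change was 0.18 without parental replicate 1 and 0.64 without parental replicate 2. Neither pair of groups overlapped. Reads of SNHG14 cannot be cleanly separated from those of SNRPN on the same strand or UBE3A on the opposite one.

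**Figure D2:**
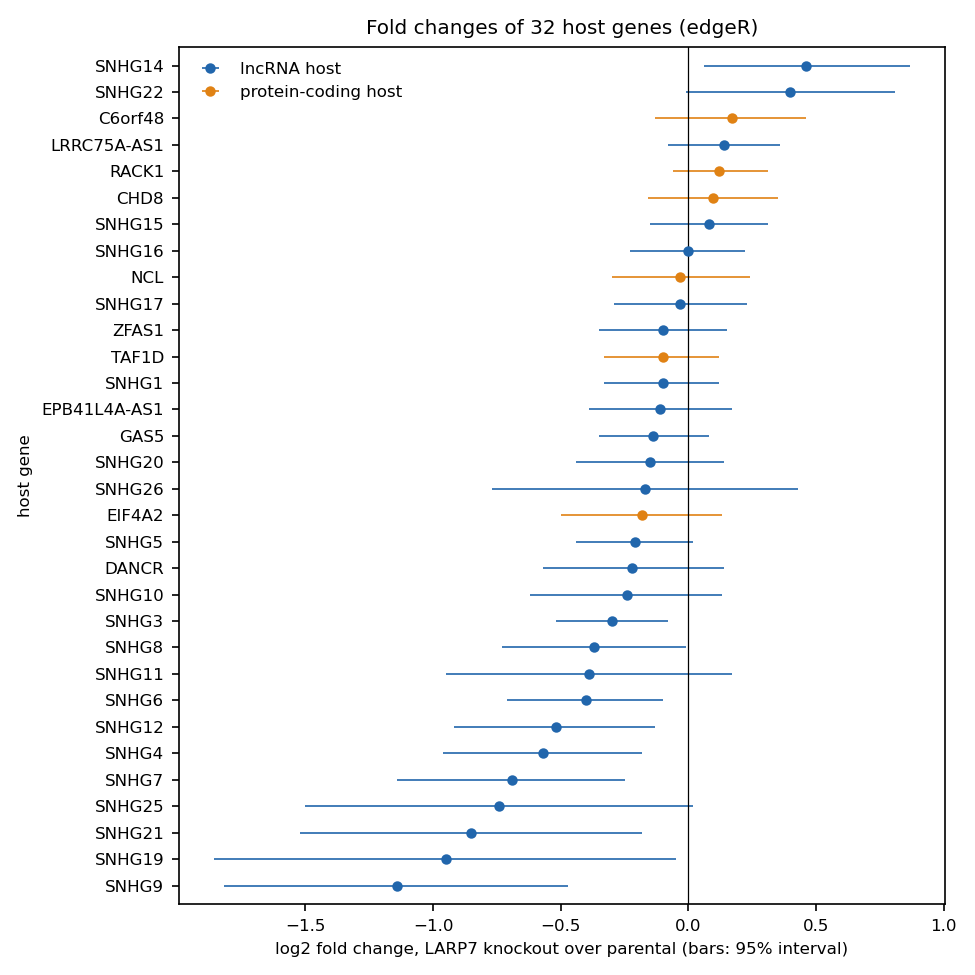
Log2 fold change of LARP7 knockout over parental with its 95% interval for the 32 tested host genes, from SNHG14 at the top (0.46) to SNHG9 at the bottom (-1.14), with non-coding hosts in blue and protein-coding hosts in orange. The protein-coding hosts lie between -0.18 and 0.17.

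The other tested hosts are given for completeness and were named after their values were seen. SNHG19, SNHG21 and SNHG25 stood at 1.72 to 7.94 CPM with log2 fold changes of -0.95, -0.85 and -0.74. SNHG11, SNHG8, SNHG10 and DANCR had log2 fold changes of -0.39, -0.37, -0.24 and -0.22, and SNHG26, SNHG20, EPB41L4A-AS1, ZFAS1 and SNHG17 had -0.17, -0.15, -0.11, -0.10 and -0.03. ZFAS1 had 49.9 and 53.6 CPM in knockout cells and 55.7 and 55 CPM in parental cells, which did not overlap although its log2 fold change was small. SNHG15 had 71.1 and 72.3 CPM in knockout cells and 68.2 and 67.4 CPM in parental cells (log2 fold change 0.08). SNHG18 and SNHG27 had no reads in any library, which allows up to 3 reads per library (counting error only), and the 2 SNHG28 entries stayed at or under 0.177 CPM and were not tested.

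Because the knockout is 1 clone, the genes around each host were read as well. The median log2 fold change of the nearest well-expressed protein-coding genes, 10 on each side where the chromosome allowed, lay between -0.21 and 0.23 for every tested host. It was -0.09 around SNHG9, -0.17 around SNHG7 and 0.01 around SNHG4.

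Transcript length moved with the fold changes. The 8 tested hosts with a mean effective length under 500 bases had a median log2 fold change of -0.57, against -0.11 for the 24 longer ones. Over all genes tested the medians were -0.21 for 1816 short and 0.02 for 16668 longer genes. Across the 32 hosts Spearman's rho between length and log2 fold change was 0.426, a description over genes that share the same 4 libraries. Without parental replicate 2, the library with the shortest fragments, the median of the short hosts was -0.30 and that of the longer ones -0.11, and without parental replicate 1 they were -0.87 and -0.10. With an offset for the effective transcript length in each library, which carries the fragment length, the medians were -0.57 for the short and -0.06 for the longer hosts, and rho was 0.491. Over all genes the same offset gave -0.15 for the short and 0.01 for the longer ones.

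**Figure D3:**
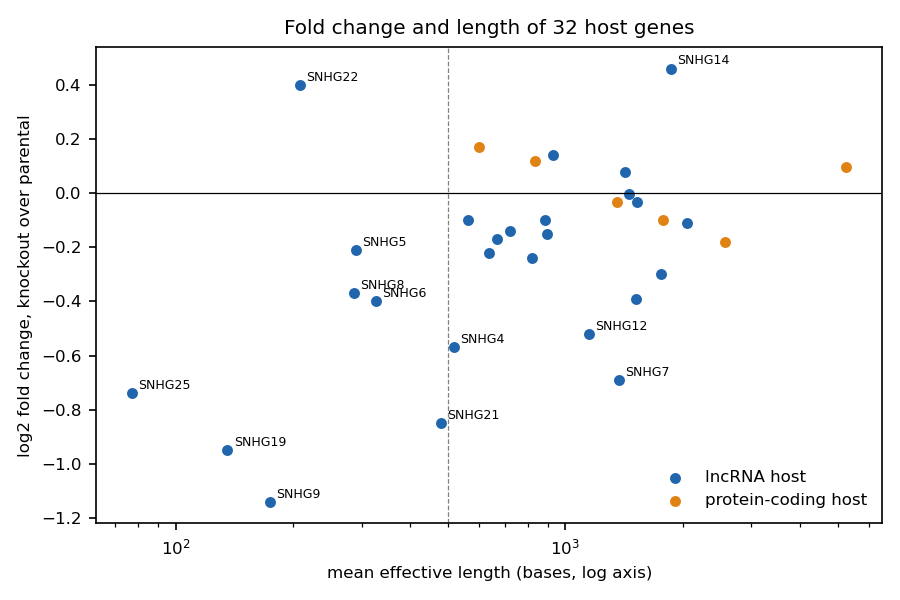
Log2 fold change (LARP7 knockout over parental) of the 32 tested host genes against mean effective length in bases (log axis), non-coding hosts in blue and protein-coding hosts in orange, with a dashed line at 500 bases. Left of the line 7 of 8 hosts lie below 0, with SNHG22 as the exception.

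The form of the start site was set beside the fold changes as well. The 8 tested hosts whose RNA begins with C and 4 pyrimidines had a median log2 fold change of -0.195, and the 18 tested hosts without that start had -0.145. Each host was judged only from the first base of the RefSeq start listed for it, and other start sites were not read. Some hosts placed among those without that start, such as GAS5, SNHG3 and SNHG14, have a listed start upstream of the GENCODE v29 gene. For SNHG14 the window read was chr15:24823598-24823627, while the gene starts at 24978583. SNHG4, SNHG12 and SNHG19, printed above, were at -0.57, -0.52 and -0.95, while RACK1 and ZFAS1, which also begin this way, were at 0.12 and -0.10. SNHG7, whose run has 4 bases, was at -0.69.

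Transcript usage, the share of each transcript in its gene, was tested in 28 hosts. No host changed by diffSpliceDGE, where 0.686% of the 9475 genes tested were called, and the lowest unadjusted p of a host was 0.563 (adjusted p = 1, edgeR). This test gave a p above 0.9 for 45.6% of all genes and missed the smaller of the shifts set in simulated data, so a count of 0 does not show that usage was alike. In limma's diffSplice, no host was under an unadjusted p of 0.05 either, and the lowest was 0.0865 (limma adjusted p = 0.649). The host genes have 388 annotated transcripts in the tables, of which 304 had at least 1 read in a library.

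Transcripts annotated as retained introns held much of the hosts' estimated TPM. They held 29.9 and 31.7% of host TPM in knockout cells and 33.3 and 31.1% in parental cells, a difference of -1.43 percentage points (two-sided exact permutation p = 0.667, where 0.33 is the smallest that 2 against 2 libraries can give). Leaving out single libraries moved that difference between -2.49 (without parental replicate 2) and -0.37 (without parental replicate 1), with -0.525 and -2.34 without knockout replicate 1 and 2. Transcripts annotated as nonsense-mediated decay targets held 7.01 and 8.04% in knockout cells and 7.02 and 8.47% in parental cells. In the other 9548 genes with a retained-intron transcript the share was 17.8 and 18.5% in knockout cells and 18.3 and 20.4% in parental cells. The groups overlapped in all 3 measures. Counted in estimated reads in place of TPM, the retained-intron share of the hosts was 34.3 and 35.4% in knockout cells and 36.3 and 38.2% in parental cells, without overlap, a difference of -2.36 points (exact permutation p = 0.33).

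Shares of single hosts lay in both directions. How often the groups separate in single genes outside the hosts was not computed, so the hosts named here have no share to be read against. SNHG1 had 79.9 and 76.8% of its TPM in retained-intron transcripts in knockout cells and 85.9 and 90.8% in parental cells. SNHG3 had 80.8 and 81.9% in knockout cells and 76.1 and 76.2% in parental cells, which is the opposite order, again without overlap. Part of that share is the short SNHG3-203, described below, which rested on few reads. With it taken out of the gene the share was 74.6 and 74.5% in knockout cells and 69.9 and 70.8% in parental cells. An exon of 1 SNHG3 transcript lies over SNORA73A, the most abundant embedded RNA, and reads of the small RNA and of that transcript cannot be told apart there. NCL, with 48.4 and 48.6% in knockout cells and 50.8 and 48.8% in parental cells, and EIF4A2, with 67.1 and 67.7% against 68 and 70.6%, were slightly lower in knockout cells. In the remaining 12 hosts with such transcripts the groups overlapped, among them GAS5 with 73.3 and 74.8% in knockout cells and 79.8 and 74.3% in parental cells, and SNHG16 with 2.84 and 3.2% against 3.11 and 2.94%. Salmon assigned the TPM of SNHG12 almost wholly to such transcripts, at 97.8 and 96% in knockout cells and 97.4 and 99% in parental cells. Exons of SNHG12 transcripts lie over SNORA61, SNORA16A and SNORA44, and reads of these small RNAs cannot be told apart there.

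**Figure D4:**
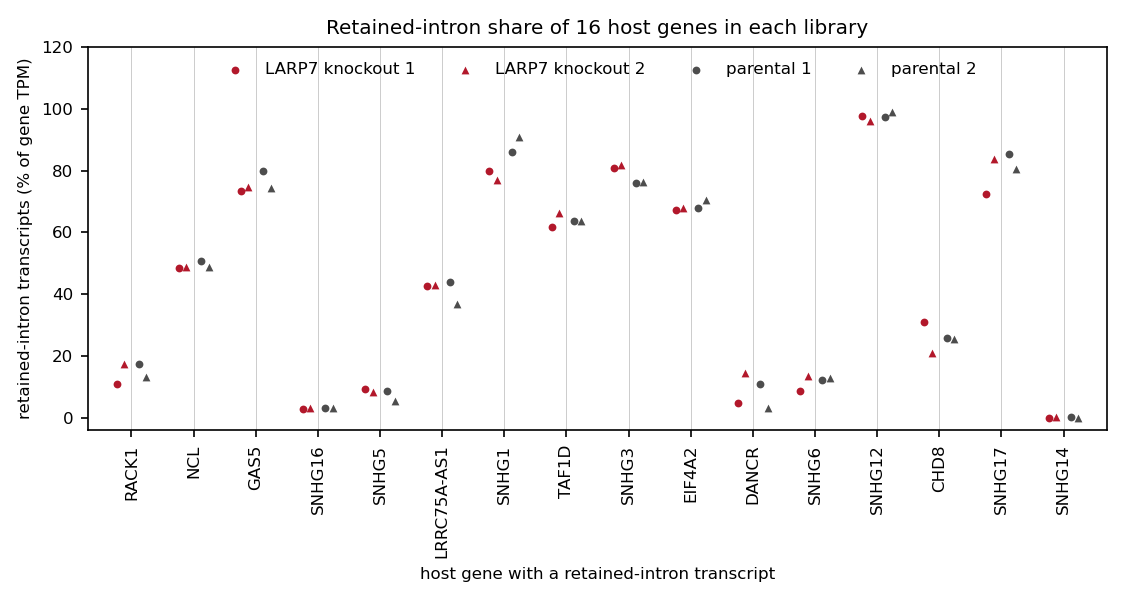
Share of each host gene's TPM in transcripts annotated as retained introns, in percent, for the 16 hosts that have one, with LARP7 knockout in red and parental in grey, circles for replicate 1 and triangles for replicate 2. SNHG1 is lower and SNHG3 higher in both knockout libraries, and SNHG12 lies near 100% throughout.

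The transcript with the largest shift in mean share was looked up in each of the 10 most abundant hosts. In SNHG1 it was SNHG1-220, a retained-intron transcript with 8 exons, at 2.01 and 3.67% of the gene in knockout cells and 7.17 and 29% in parental cells. One of its exons covers SNORD22, and parental replicate 2 held most of the shift. In EIF4A2 it was EIF4A2-219, whose exons cover 5 embedded genes, at 31.4 and 36.1% in knockout cells and 36.5 and 45.8% in parental cells. In TAF1D it was TAF1D-215, also over 5 embedded genes, at 21.8 and 24.2% in knockout cells and 22.8 and 29.5% in parental cells. In LRRC75A-AS1 it was LRRC75A-AS1-201, with an exon over SNORD65, at 1.56 and 0.638% in knockout cells and 3.63 and 6.58% in parental cells. All 4 were lower on average in knockout cells, and reads of the mature small RNA and of the longer transcript cannot be told apart where they overlap.

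The other 6 such transcripts have no exon over an embedded gene. RACK1-227 had 37.7 and 36.8% of the gene in knockout cells and 36.5 and 29.4% in parental cells, and NCL-203 had 28.4 and 28.4% against 26.6 and 26.5%. SNHG16-204 had 5.34 and 5.16% in knockout cells and 2.58 and 2.95% in parental cells. SNHG3-203 is annotated at 185 bases and rested on 18 and 24 reads in knockout cells and 22 and 15 reads in parental cells, with shares of 24.2 and 29% against 20.5 and 18.3%. GAS5-201 had 4.52 and 4.87% in knockout cells and 7.26 and 7% in parental cells, and SNHG5-202, the main SNHG5 transcript, had 77.3 and 77% against 79.3 and 81.5%. The usage filter asks for 5% of the gene's estimated reads in 2 libraries, not of its TPM. SNHG1-220, at 0.893 and 1.59% of those reads in knockout cells and 3.42 and 15.3% in parental cells, and SNHG3-203, at 0.366 and 0.489% against 0.337 and 0.348%, passed it in fewer than 2. These and LRRC75A-AS1-201 and SNHG16-204 were not tested, and the other 6 of the 10 transcripts had an adjusted p of 1 in edgeR.

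The embedded genes were read in the same fit. Of the 162, 53 had reads in some library and 23 passed the filter on low counts, 64 lie under an exon of at least one host transcript, and the 84 inside SNHG14 had no reads in any library (up to 3 reads per gene and library are allowed by a count of 0). No embedded gene changed at an adjusted p under 0.05 in edgeR, against the 0.833% of all genes named above. At an unadjusted p under 0.05 there were 10 (14.3% of all genes). Limma voom called 0 of the 23, where it called 0.812% of all genes. DESeq2, read over 52 embedded genes, called 2, where it called 1.31% of 31419 genes. The DESeq2 calls were SCARNA13 and SNORA71A. In 10 of the 23 both knockout libraries lay below both parental ones, and in 1 above, where 22.7 and 23.6% of all genes did so. The fold changes ran from -2.55 to 0.65 with a median of -1.07, with 20 negative and 3 positive. Both annotated entries of SNORA16A, which overlap at chr1:28580920-28581054, are counted separately among the 23. Some other RNAs, such as SNORA17B, also have more than 1 entry among the 162. The 57 snoRNA and scaRNA genes tested outside the hosts had a median of -0.88. Without parental replicate 2, the median of the embedded genes was -0.26 over 22 genes, and without parental replicate 1 it was -1.60 over 25.

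The classes differed in how well they were read. The 33 embedded H/ACA genes, of 121 to 272 bases, summed to 187 and 232 CPM in knockout cells and 209 and 316 CPM in parental cells. The 116 embedded C/D genes, of 64 to 126 bases, summed to 3.56 and 5.02 CPM in knockout cells and 6.2 and 22.4 CPM in parental cells, and 4 of them were tested. The 4 embedded scaRNA genes summed to 78 and 88.7 CPM in knockout cells and 52.9 and 67.9 CPM in parental cells. The 9 embedded genes that carry only an Rfam family name summed to 0.161 and 0.0299 CPM in knockout cells and 0.147 and 0.0538 CPM in parental cells. Parental replicate 2 held the highest value of both snoRNA classes, as it did for the share of reads in small RNA genes.

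**Figure D5:**
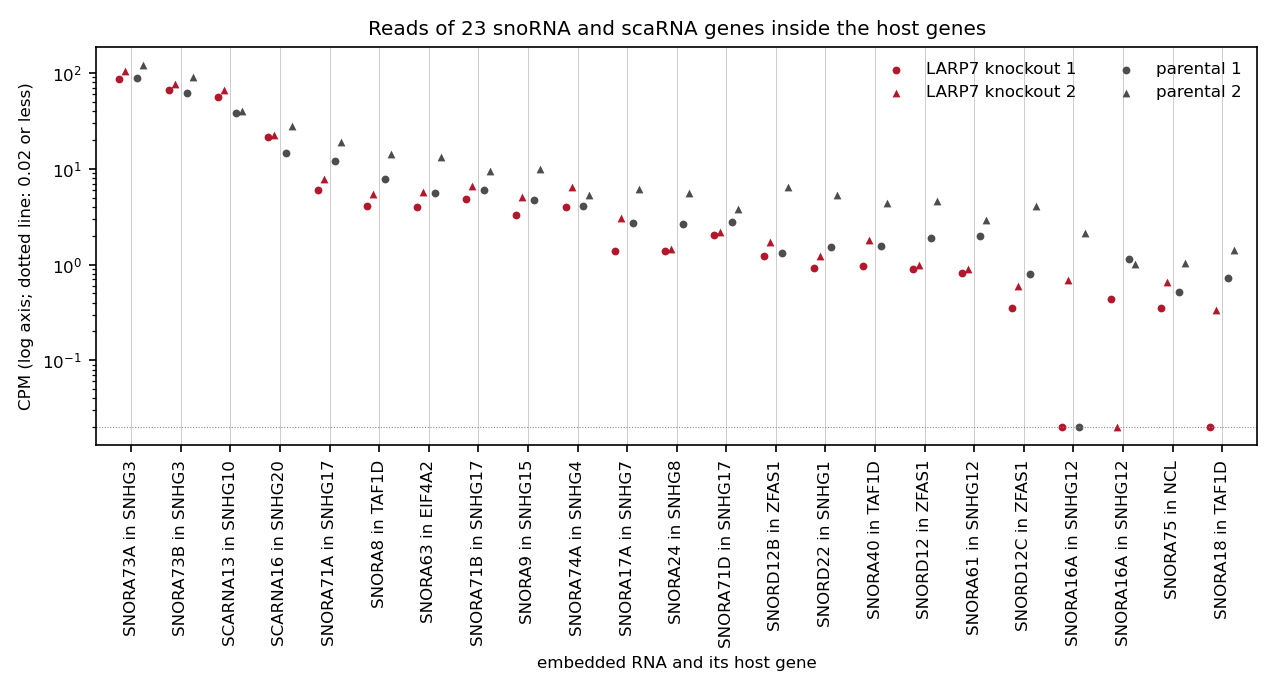
CPM (log axis) of the 23 tested embedded genes in each library, LARP7 knockout in red and parental in grey, circles for replicate 1 and triangles for replicate 2, and values of 0.02 or less drawn on the dotted line. SCARNA13 is the gene with both red points above both grey points, and parental replicate 2 is the highest point in most others.

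SCARNA13 in SNHG10 (sequence above) had 56.7 and 66.4 CPM in knockout cells and 38.5 and 40 CPM in parental cells, from 972 and 1123 reads against 677 and 503.5. The log2 fold change was 0.65 ± 0.14 (SE) with an interval of 0.38 to 0.92 (edgeR adjusted p = 0.0825). It was the only tested embedded gene whose knockout libraries both exceeded both parental ones, and its adjusted p was under 0.05 in DESeq2 (0.0228). Its host SNHG10 (chr14:95532297-95534872, minus) had 13.7 and 14.1 CPM in knockout cells and 15.4 and 17.5 CPM in parental cells. Per 100 reads of SNHG10 there were 415 and 470 reads of SCARNA13 in knockout cells and 250 and 228 in parental cells. Exons of SNHG10 do not cover SCARNA13 in the annotation. At 275 bases SCARNA13 is the longest of the embedded genes, and fragments were longer in the knockout libraries. The part of RNA length in its fold change and in its ratio to SNHG10 was not tested.

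The most abundant embedded genes, SNORA73A and SNORA73B in SNHG3, are longer H/ACA RNAs and overlapped between the groups. SNORA73A had 85.7 and 105 CPM in knockout cells and 89.5 and 121 CPM in parental cells, and SNORA73B had 66.4 and 76.8 CPM, against 62.5 and 90.5. Their log2 fold changes were -0.14 ± 0.17 and -0.09 ± 0.18 (SE), and both became positive without parental replicate 2, at 0.09 and 0.19. SCARNA16 in SNHG20 had 21.3 and 22.3 CPM in knockout cells and 14.5 and 27.9 CPM in parental cells, with both knockout values between the parental ones. SNORA74A in SNHG4 had 4.03 and 6.45 CPM in knockout cells and 4.09 and 5.32 CPM in parental cells, also without a separation of the groups.

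SNORA71A in SNHG17 (sequence above) had 6.01 and 7.87 CPM in knockout cells and 12.1 and 19.2 CPM in parental cells. Its log2 fold change was -1.17 ± 0.28 (SE; edgeR adjusted p = 0.126), and -0.81 without parental replicate 2. Of its relatives in the same host, SNORA71B had 4.79 and 6.57 CPM in knockout cells and 5.97 and 9.53 CPM in parental cells, and SNORA71D had 2.04 and 2.19 CPM, against 2.78 and 3.81. Their log2 fold changes were -0.44 ± 0.33 and -0.63 ± 0.40 (SE), and the difference from SNORA71A was not tested. The SNORA71B counts are those of a gene entry of 272 bases, longer than the 134 bases printed above. SNORA71C, a further relative in SNHG17, had 6 and 4 reads in knockout cells and 7 and 5 in parental cells, too few to be tested. The host SNHG17 had 49.6 and 52 CPM in knockout cells and 55.1 and 48.7 CPM in parental cells, so its groups overlapped.

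SNORA8, in TAF1D, had 4.07 and 5.43 CPM in knockout cells and 7.81 and 14.3 CPM in parental cells (log2 fold change -1.21 ± 0.35 SE, edgeR adjusted p = 0.173). SNORA24, in SNHG8, had 1.37 and 1.46 CPM in knockout cells and 2.66 and 5.58 CPM in parental cells (log2 fold change -1.53 ± 0.48 SE, edgeR adjusted p = 0.203). Neither gene overlapped between groups, and without parental replicate 2, their highest library, the log2 fold changes were -0.71 for SNORA8 and -0.92 for SNORA24. SNORA63 in EIF4A2 had 3.98 and 5.68 CPM in knockout cells and 5.64 and 13.3 CPM in parental cells, SNORA9 in SNHG15 had 3.26 and 5.13 CPM against 4.77 and 9.87, and SNORA17A in SNHG7 had 1.4 and 3.07 CPM against 2.72 and 6.19. In these 3 the groups overlapped, and their log2 fold changes of -0.95, -0.78 and -0.98 became -0.23, -0.19 and -0.29 without parental replicate 2, the highest library.

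The C/D RNAs of ZFAS1 printed above, named after their values were seen, rested on few reads. SNORD12C had 6 and 10 reads in knockout cells and 14 and 52 in parental cells, and SNORD12 had 15.4 and 16.8 estimated reads, against 32.8 and 58.7. SNORD12B had 21 and 29 reads in knockout cells and 23 and 82 in parental cells. Their log2 fold changes were -2.34, -1.78 and -1.38 with standard errors of 0.84, 0.56 and 0.69 (edgeR adjusted p between 0.209 and 0.418), while ZFAS1 itself was at -0.10. Their bases number 89 to 91, far under the mean fragment of every library. The small RNA share of the libraries, highest in parental replicate 2, moves with these values, and its part in the result was not tested.

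Set against their hosts, the embedded genes gave 4.58 and 5.53 reads per 100 host reads in knockout cells and 4.34 and 6.93 in parental cells. The groups overlapped (means 5.06 ± 0.67 and 5.63 ± 1.84, SD, n = 2 each; two-sided exact permutation p = 1). The difference of -0.576 became 0.724 without parental replicate 2. SNHG3 with its RNAs held much of this, and without it the values were 2.09 and 2.56 in knockout cells and 2 and 3.53 in parental cells. Of the 25 hosts with reads on an embedded gene, this ratio was lower in both knockout libraries than in both parental ones in 11, higher in 3 (SNHG4, SNHG6 and SNHG10), and overlapped in 11. Several rest on very few reads. SNHG6 rests on SNORD87, with 0.995 and 2.41 estimated reads in knockout cells and 0 and 0 in parental cells. SNHG19 rests on SNORD60, with 0 and 1 reads against 3 and 4. The ratio was not computed for other genes, so the tally has no share to be read against. In SNHG17 there were 26.6 and 32.4 embedded reads per 100 host reads in knockout cells and 38.6 and 67.7 in parental cells. In SNHG4 the order was the opposite, with 39.9 and 55.5 in knockout cells and 26 and 34.1 in parental cells.

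Genes that act on the hosts or their RNAs were read from chosen lists. Of 22 factors of snoRNA particles and their assembly, none changed in edgeR (0.833% of all genes) and 2 reached an unadjusted p under 0.05 (14.3% of all genes). Their median log2 fold change was -0.009, and DESeq2 (1.31% of all genes) and limma voom (0.812%) called 0. FBL, the methyltransferase of C/D particles, had 110 and 116 CPM in knockout cells and 114 and 118 CPM in parental cells. DKC1, the pseudouridine synthase of H/ACA particles, had 181 and 168 CPM, against 186 and 146. DBR1, the enzyme that opens intron lariats, had 42.1 and 36.2 CPM in knockout cells and 31.5 and 29.1 CPM in parental cells (log2 fold change 0.37 ± 0.15 SE, edgeR adjusted p = 0.327).

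Of 16 nonsense-mediated decay factors, none changed in edgeR (0.833% of all genes) and 0 reached an unadjusted p under 0.05 (14.3% of all genes). Their median was -0.006, and DESeq2 (1.31% of all genes) and limma voom (0.812%) called 0. UPF1, the central helicase of that pathway, had 73.1 and 60.7 CPM in knockout cells and 75.1 and 57.5 CPM in parental cells. A further list held genes known for a terminal pyrimidine start, mostly ribosomal proteins and translation factors, with a few others such as NPM1, HNRNPA1, NAP1L1 and VIM. Of its 95 tested members 1 fell and none rose, where 0.503% of all genes were called lower and 0.33% higher. The median was 0.069, 14 reached an unadjusted p under 0.05 (14.3% of all genes), DESeq2 called 3 (1.31% of all genes) and limma voom 1 (0.812%). The member that fell was PABPC1, the cytoplasmic poly(A)-binding protein, with 877 and 796 CPM in knockout cells and 1452 and 1528 CPM in parental cells (log2 fold change -0.83 ± 0.10 SE, edgeR adjusted p = 0.0104). Around it, 20 neighbouring well-expressed protein-coding genes had a median of -0.38, below that around any tested host. Outside the host list, 326 further genes hold an annotated snoRNA or scaRNA gene. Of their 256 tested members 1 rose, where 0.33% of all genes were called higher. It was the clone-named locus AL035078.4, with 6.24 and 5.62 CPM in knockout cells and at most 5.11e-07 CPM in parental cells (edgeR adjusted p = 0.00454). Among these genes DESeq2 called 4 (1.31% of all genes) and limma voom 1 (0.812%). The median was -0.16 for the 32 hosts and 0.028 for these 256 genes, a difference that was not tested.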

How the data were processed

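The deposited tables give estimated counts (reads divided among transcripts by Salmon), TPM and effective length for each transcript, per the file headers. Tools named in the submitters' processing notes are Salmon, STAR 2.5.3a, edgeR 3.24.3, cutadapt 1.6, Picard, SAMtools 1.3.1 and R, with build hg38. Annotation release and strand setting: not given in the sources used here. Of 198002 transcripts, 197318 matched GENCODE v29 by identifier. The 684 others held at most 0.0711% of reads.

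Counts were summed per gene, rounded and tested over all genes with edgeR 4.0.16 in R 4.3.3 (filterByExpr, TMM, quasi-likelihood F test, Benjamini-Hochberg, knockout minus parental). The SE was taken from the log2 fold change and F, and 95% intervals are 1.96 SE to each side. They take no account of the few degrees of freedom and are narrower than the F test implies. CPM uses the TMM factors. Usage was tested with diffSpliceDGE (at least 10 reads and 5% of the gene's reads in 2 libraries). Shares were compared with exact permutation tests (SciPy 1.17.1, Python 3.11.15). Alternatives used DESeq2 1.42.0, limma 3.58.1, other scalings and filters, a length offset, a replicate block and single libraries left out. Steps were tested on simulated data. Salmon's assignment error is not in the tests, and intervals and limits for a count of 0 cover counting error only.

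Members and lists were chosen with earlier results of these data known. Values in every library are given for the 10 hosts highest in TPM, the 5 highest and 5 lowest log2 fold changes at an average log2 CPM of at least 3, protein-coding hosts, the 12 embedded genes highest in CPM, and the transcript with the largest shift in each of those 10 hosts. Other genes named were picked with their values in view. The 7SK reads lie on the entry ENSG00000202198, also chosen after its values were seen. Replicate libraries of a group differed beyond sampling noise (chi-square per degree of freedom 8.74 in knockout and 30.67 in parental pairs), so each was kept as a replicate.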

Additional observations from a re-analysis of the deposited data

How the results depend on the processing

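Against 0 host genes called in edgeR, 3 were called with no filter on low counts (SNHG12, SNHG7 and SNHG9, all lower; 2.64% of all genes), and leaving out single libraries gave 0 to 8. The 8 came without parental replicate 1 (11.4% of all genes called), 4 without parental replicate 2 (9.27%) and 1, SNHG7, without knockout replicate 2. Embedded genes numbered 6 with no filter, 2 with DESeq2, and 0 to 12 over single libraries left out, the 12 without parental replicate 1 and 3 without parental replicate 2. The other scalings, the stricter filter, the length offset and limma voom gave 0 for both. With 2 pairs, shared replicate numbers do not establish a pairing (the correlation of deviations across genes was 0.165), and the fit with a replicate block called 3 host and 7 embedded genes, while 8.96% of all genes were called.

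No host changed in usage under any alternative run. That count says nothing on stability for limma diffSplice, the replicate block and the fits without a knockout library, which called 0 of all genes, or without parental replicate 2, which called 0.0223%; without parental replicate 1 it was 1.03%. The retained-intron difference stayed negative, between -2.49 and -0.37 with single libraries left out. Embedded reads per 100 host reads differed by -1.88 to 0.724 with single libraries left out, positive without parental replicate 2. For single genes, log2 fold changes turned sign with the length offset for NCL (0.000), SNHG16 (0.049), EIF4A2 (0.002), SNORA73A (0.12) and SNORA73B (0.16), with library size alone for NCL (0.063) and SNHG16 (0.090), and with no filter for SNHG16 (0.009). Single libraries left out gave ranges of -0.21 to 0.17 for NCL, -0.098 to 0.092 for SNHG16, -0.40 to 0.057 for EIF4A2, -0.029 to 0.23 for CHD8, -0.34 to 0.092 for SNORA73A, -0.34 to 0.19 for SNORA73B, -0.36 to 0.59 for SCARNA16 and -0.21 to 0.46 for SNORA74A. The cause was not tested. Of the other values for single genes, 316 kept their direction and side of the threshold and 35 passed it. SCARNA13 passed it with no filter, with the block, with DESeq2 and without either parental library (adjusted p 0.000168 to 0.0228), where the fits without a parental library rest on 1 parental sample and called 11.4 and 9.27% of all genes. Without knockout replicate 1 or 2 its adjusted p was 0.219 and 0.689. Of the hosts named with values, SNHG3, SNHG4 and SNHG22 passed the threshold without parental replicate 2 (adjusted p 0.0255 to 0.0462) and EIF4A2, SNHG7, SNHG9 and SNHG12 without parental replicate 1 (0.000209 to 0.0298). With 2 libraries per group, intervals of the low hosts are wide and do not exclude a change.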
